A study of Mus musculus with 19 samples.

Results

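The comparison set 3 ATAC-seq libraries of cells differentiated for 24 h with TNF against 3 libraries of neurospheres (NSPs), the proliferating progenitor cultures from which those cells came, with special attention to loci that moved both with differentiation and with TNF. The 6 libraries were taken by their titles from the 19 of the series, and 88919 of the 90154 peaks in the common peak table were tested. Single C57BL/6J mouse brains at embryonic day 14 gave the ventricular zone cells of the NSPs, which grew as free-floating spheres with EGF. For the 24 h TNF group the EGF medium was exchanged for DMEM with 10% FBS on poly-L-ornithine, with TNF at 50 ng/ml, so that the end of EGF, serum, attachment and TNF all separate it from the NSPs. The untreated 24 h group (3 libraries) had the same change of medium and plate without TNF, and it stands beside the main comparison wherever a peak is described. All groups are wild type, none was sorted, and nothing in the labels says that libraries of a group came from separate embryos or cultures, so the p-values measure the spread between these libraries, which may be technical. ATAC-seq reads a bulk population, and a change in the accessibility of a site cannot be told apart from a change in the share of cells that carry it open.

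Transposase cuts DNA where nucleosomes give way, so reads pile up at active promoters and enhancers. Neural progenitors are kept dividing by EGF and Notch signalling through Hes factors, and astrocytes that arise from them are marked by the intermediate filament GFAP. TNF acts through its receptors on the IκB kinases, which release NF-κB dimers to the promoters and enhancers of cytokine, complement and antigen presentation genes and of NF-κB's own inhibitors, and astrocytes exposed to it take on what is called a reactive state.

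Of the listed genes with a RefSeq window, 12 had a promoter peak called higher with TNF both against NSPs and against untreated cells, and 7 of these, chosen after their values were seen, are shown first, from genes of complement, iron handling, chemokines, NF-κB feedback and antigen presentation. Each line holds the 250 bases before the gene's listed start, 5′ to 3′ on the gene's own strand, from RefSeq on GRCm38.p6, and capitals mark stretches that match the usual NF-κB consensus of 10 letters on either strand.
C3 (chr17:57228137-57228386, minus strand): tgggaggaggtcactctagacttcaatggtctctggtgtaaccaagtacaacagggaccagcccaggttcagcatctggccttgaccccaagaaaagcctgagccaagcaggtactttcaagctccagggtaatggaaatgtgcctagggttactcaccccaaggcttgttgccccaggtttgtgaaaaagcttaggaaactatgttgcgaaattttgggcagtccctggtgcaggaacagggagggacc
Lcn2 (chr2:32387740-32387989, minus strand): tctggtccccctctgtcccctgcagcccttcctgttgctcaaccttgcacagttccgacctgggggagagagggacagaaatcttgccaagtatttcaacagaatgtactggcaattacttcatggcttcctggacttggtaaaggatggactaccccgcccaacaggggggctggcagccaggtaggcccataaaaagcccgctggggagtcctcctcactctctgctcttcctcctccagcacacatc
Steap4 (chr5:7960222-7960471, plus strand): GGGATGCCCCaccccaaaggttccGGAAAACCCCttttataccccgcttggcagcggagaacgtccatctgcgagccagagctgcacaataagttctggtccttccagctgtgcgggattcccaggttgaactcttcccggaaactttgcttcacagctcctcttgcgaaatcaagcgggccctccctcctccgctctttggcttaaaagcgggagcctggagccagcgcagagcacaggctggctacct
Tnip1 (chr11:54962941-54963190, minus strand): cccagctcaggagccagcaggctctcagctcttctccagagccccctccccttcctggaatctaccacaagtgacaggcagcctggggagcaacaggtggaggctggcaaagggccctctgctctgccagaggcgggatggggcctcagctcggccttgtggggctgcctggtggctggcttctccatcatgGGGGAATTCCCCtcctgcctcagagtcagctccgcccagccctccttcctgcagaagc
Nfkbia (chr12:55492648-55492897, minus strand): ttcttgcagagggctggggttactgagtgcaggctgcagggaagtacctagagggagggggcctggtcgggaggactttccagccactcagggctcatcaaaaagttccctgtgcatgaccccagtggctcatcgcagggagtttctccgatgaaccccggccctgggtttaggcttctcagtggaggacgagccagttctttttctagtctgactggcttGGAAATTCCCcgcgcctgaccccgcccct
Cxcl10 (chr5:92348890-92349139, minus strand): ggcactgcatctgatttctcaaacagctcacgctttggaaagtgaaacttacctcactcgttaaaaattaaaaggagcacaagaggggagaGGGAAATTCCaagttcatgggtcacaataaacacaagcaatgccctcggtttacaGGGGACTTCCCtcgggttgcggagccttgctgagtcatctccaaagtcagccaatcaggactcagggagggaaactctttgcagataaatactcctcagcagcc
H2-K1 (chr17:34000348-34000597, minus strand): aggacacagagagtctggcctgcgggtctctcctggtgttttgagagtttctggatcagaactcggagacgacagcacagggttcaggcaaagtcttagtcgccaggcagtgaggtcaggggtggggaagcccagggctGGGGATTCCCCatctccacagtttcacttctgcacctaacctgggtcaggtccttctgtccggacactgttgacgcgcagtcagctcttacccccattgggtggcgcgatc
The consensus occurred in 2 stretches before Steap4 and Cxcl10 and in 1 stretch before Tnip1, Nfkbia and H2-K1. No match stood in the windows of C3 and Lcn2. These 5 were the only windows with a match among the 12, since those of Cp, Gbp2, Ifit1, Osgin1 and Osmr, which are not printed, held none. Among all 21263 promoters of the RefSeq table, 7.91% held a match in these windows.

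The values below are those the authors deposited, reads in a peak divided by a size factor of the library, and a fold change is a difference of log2(value + 1), tested with limma over all 19 libraries. Reads in peaks ran from 15764739 to 18780028 in the 24 h TNF libraries, from 11758938 to 15083087 in the untreated 24 h libraries and from 28636739 to 39349111 in the NSPs. The deeper NSP libraries resolve low values better than the others. Spearman correlations over peaks were 0.956 to 0.963 among the 24 h TNF libraries and 0.913 to 0.982 among the NSPs, where replicate 1 stood apart. Given that gap, counts are also printed without this library.

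Accessibility changed at about as many sites upward as downward, with more promoter peaks falling than rising and more peaks outside promoters rising than falling. At an adjusted p under 0.05, 23520 peaks (26.5% of those tested) were higher in the 24 h TNF cells than in NSPs and 22693 (25.5%) were lower. Without NSP replicate 1 the counts were 23923 and 22342. Of the calls, 50.9% were higher, and scaling by total reads in peaks in place of the authors' factors raised this share to 66.8%. The same scaling moved the median log2 change over all tested peaks from -0.08 to 0.12. With only peaks of a mean of at least 50 reads, 16539 were higher and 19708 lower. There 45.6% of calls were higher, so the balance also turned with the filter on low values. For 57.2% of the tested peaks the 3 TNF libraries and the 3 NSP libraries did not overlap. Of 13522 promoter peaks, whose centre lies within 1 kb of a gene start, 724 (5.35%) rose and 6402 (47.3%) fell, with a median change of -0.32. Without NSP replicate 1, 747 promoter peaks rose and 5267 fell. With total-read scaling 1205 rose and 3017 fell, and with loess offsets 1180 and 3551. Among calls of at least 2-fold the balance at promoters turned, with 345 higher and 281 lower, and over all peaks 16484 were higher and 8049 lower. Of 39584 peaks within genes 30.0% rose and 22.7% fell, and of 35813 peaks between genes 30.5% rose and 20.4% fell.

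**Figure D1:**
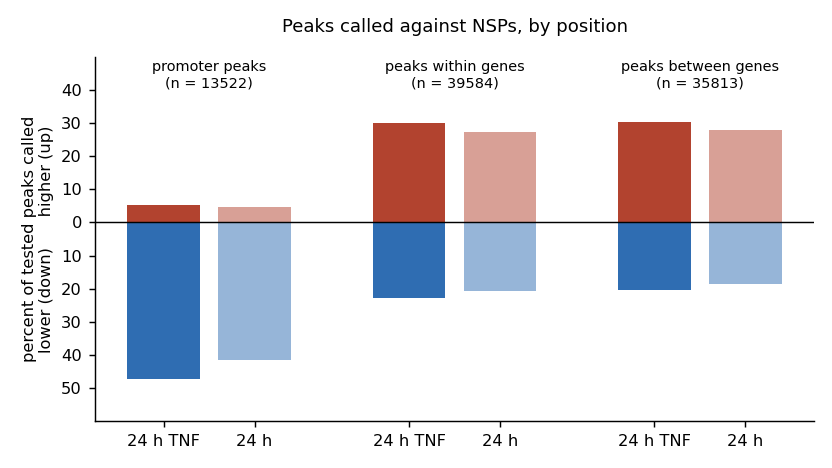
Share of tested peaks called higher (red, upward) or lower (blue, downward) than in NSPs, in percent, for 24 h with TNF (dark) and untreated 24 h (pale), split into promoter peaks, peaks within genes and peaks between genes. Promoter peaks fell in 47.3% of cases with TNF and rose in 5.35%, whereas outside promoters more peaks rose than fell.

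The untreated cells showed the same split against the same NSP libraries. There, 21492 peaks (24.2%) were higher and 20490 (23%) lower, with 624 (4.61%) and 5614 (41.5%) among promoter peaks. TNF itself, read as 24 h TNF against untreated 24 h, called 6274 peaks higher (7.06%) and 3136 lower (3.53%), and at promoters 218 higher (1.61%) and 80 lower (0.592%). Leaving out 1 library moved these TNF calls, to 3860 higher without 24 h TNF replicate 3 and to 1525 and 1864 lower without untreated replicates 1 and 2 and 1962, 2026 and 1652 lower without 24 h TNF replicates 1, 2 and 3. Without NSP replicate 1, which enters this contrast only through the shared estimate of the spread, they rose to 8386 higher and 5427 lower. The change from NSPs to TNF-treated cells is by construction the sum of the untreated 24 h step and the TNF step, which share the untreated libraries. At the 23520 peaks that rose, the median change was 1.37 in total, 1.16 over the 24 h step and 0.19 over the TNF step. Only the 24 h step was called at 14994 of them, only the TNF step at 2679, and neither at 2927. At the 22693 peaks that fell, the medians were -0.79, -0.63 and -0.12, and only the TNF step was called at 820.

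The sites that stood out most in the upward direction lay outside promoters. An intragenic peak of Palld, which encodes the actin-bundling protein palladin (chr8:61573473-61573973), measured 10.5, 11.3 and 9.3 in the NSPs, 224.3, 209.5 and 243.9 in untreated cells and 374.9, 385.7 and 400.9 with TNF. The 3 groups did not overlap, and the mean rose 37.3-fold from NSPs to TNF cells (log2 change 5.10 ± 0.14 SE, limma, adjusted p = 5.9e-21). At Tlr2, a Toll-like receptor of innate immunity, a peak 21.2 kb from the gene (chr3:83862823-83863323) read 27.5, 24.5 and 19.9 in NSPs, 134.3, 126.9 and 124.4 untreated and 822.4, 747.7 and 750.8 with TNF. Here both steps were large, at 2.39 ± 0.14 for differentiation and 2.58 ± 0.14 for TNF, and TNF raised the same peak by 2.23 at 72 h. Peaks at Anxa3 (an annexin), Gdpd5 (a glycerophosphodiesterase), Arl4c (a small GTPase), Dis3l2 (an exoribonuclease) and Lmo4 (a LIM-only transcription cofactor) rose by between 3.95 (Lmo4) and 4.58 (Gdpd5), and in each of them the TNF step was called too, between 0.65 at Lmo4 and 1.08 at Anxa3. The intragenic peak of Tgfbr2, the type II TGF-β receptor (chr9:116152673-116153173), differed from these. It read 66.6, 72.5 and 65.8 in NSPs, 776.5, 560.6 and 686.0 untreated and 796.8, 821.0 and 789.2 with TNF, and its TNF step of 0.26 ± 0.11 was not called (limma, adjusted p = 0.14). The peak nearest to Celf4, an RNA-binding protein gene 2173.9 kb away on chromosome 18, rose by 5.25 in the same manner, with a TNF step of 0.20 that was not called.

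The 10 sites named for their fall were all called lower without TNF as well. The largest fall was within Xylt1 (chr7:117462471-117462971), which encodes the xylosyltransferase that starts glycosaminoglycan chains. Its libraries read 2323.2, 2334.7 and 2772.9 in NSPs, 456.6, 523.7 and 335.0 untreated and 313.0, 340.5 and 266.9 with TNF, a log2 change of -3.01 ± 0.14 (limma, adjusted p = 2.3e-16). The TNF libraries lay far below the NSPs but overlapped the untreated range, and the TNF step of -0.50 was called. Near Traf3ip2, an adaptor of interleukin-17 receptor signalling (chr10:39672585-39673085), the values fell from 1382.1, 1459.9 and 1613.4 in NSPs through 479.3, 489.8 and 426.2 to 281.2, 289.8 and 329.2. Near Wnt5a, a Wnt ligand (chr14:28502620-28503120), they fell from 678.8, 816.4 and 834.6 through 309.7, 359.9 and 262.3 to 189.2, 207.9 and 185.9. Both TNF steps were called, at -0.63 and -0.66, and within Galnt10, a mucin-type glycosyltransferase gene, the TNF step reached -1.02. At Slc6a11, which encodes the GABA transporter GAT-3, the untreated step was -1.83 and the TNF step -0.59, and both were called. At Map4k4, a kinase gene, they were -1.44 and -0.33, again both called. Peaks at Hip1, Irx1 and Vwa8 fell by 2.49, 2.15 and 2.18 with no called TNF step, and one near Sall3, a zinc finger factor gene on chromosome 18, fell by 2.06 after a 24 h step of -2.44.

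Promoters of progenitor and cell cycle genes fell almost throughout, and they did so with the untreated step. Of 22 neural progenitor genes 21 had a tested promoter peak, of which 19 fell and 1 rose, against 47.3% and 5.35% of all promoter peaks, with a median of -0.59 against -0.32. Hes5, the Notch effector, read 2209.3, 1809.4 and 1909.7 in NSPs, 826.6, 815.8 and 590.0 untreated and 647.3, 659.4 and 719.7 with TNF (log2 change -1.54 ± 0.16, limma, adjusted p = 3.4e-09). Olig2, a bHLH factor of ventral and oligodendrocyte progenitors, fell from 1338.9, 1401.9 and 1672.5 to 591.6, 548.4 and 644.9. The TNF and NSP libraries did not overlap at either gene, while at both the TNF libraries overlapped the untreated ones. Dll1, a Notch ligand, and Olig1, a bHLH factor gene placed by a gene end, fell by 1.24 and 1.33, the former by 0.98 without NSP replicate 1, whose value of 1586.6 was above the 862.1 and 974.8 of the other NSPs. Prom1, the gene of the stem cell surface protein prominin, was the 1 that rose, by 0.43, and Msi1, an RNA-binding protein gene, was not called at 0.38 (limma, adjusted p = 0.12). No promoter of this list was called between 24 h TNF and untreated cells in either direction. This was near the 1.61% higher and 0.592% lower of all promoter peaks.

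The 18 proliferation genes all had a tested promoter peak. Of these 16 fell and none rose, beside 47.3% and 5.35% of all promoter peaks, with a median of -0.64. The count of risers stayed at 0 or 1 under the scalings tried, and fallers ranged from 11 with loess offsets to 16. Mki67, the proliferation marker Ki-67 (chr7:135716303-135716803), read 783.9, 625.1 and 703.7 in NSPs, 376.9, 368.8 and 327.6 untreated and 349.3, 365.2 and 336.5 with TNF. Cdk1, the mitotic kinase, fell to 0.511 of its NSP mean, and Ccnd1, the cyclin of the G1 phase (placed by a gene end), to 0.347. The TNF step was -0.03 at Mki67 and -0.02 at Cdk1 and Ccnd1. None of the 18 promoters was called for it, near the 1.61% higher and 0.592% lower of all promoter peaks. Top2a and Mcm7 were the members not called against NSPs, at -0.24 and 0.15.

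Of 22 astrocyte genes 18 had a tested promoter peak, of which 4 rose and 8 fell, the falls near the 47.3% of all promoter peaks and the rises above their 5.35%. Gfap (chr11:102897110-102897610) read 185.8, 75.8 and 61.1 in NSPs, 511.2, 500.1 and 455.7 untreated and 347.5, 322.1 and 436.2 with TNF. Every TNF library was above every NSP library and below every untreated one. Its rise of 1.93 ± 0.22 (limma, adjusted p = 2.2e-08) was 2.41 without NSP replicate 1, and its TNF step of -0.42 ± 0.22 was not called at 24 h (adjusted p = 0.27) but was -1.10 at 72 h (adjusted p = 0.0011). Clcf1, a cytokine of the interleukin-6 family (chr19:4213432-4213932, placed by a gene end), was called at both steps, at 1.28 and 1.05, with 243.0, 222.8 and 195.4 in NSPs, 587.5, 501.6 and 514.8 untreated and 1047.0, 1174.3 and 1092.5 with TNF. The same peak held 1 read in each of the 10 libraries of 72 h and 1 week, which were numbered as a separate set, and so gives no 72 h value. In all, 175 peaks (73 at promoters, no other listed promoter) had values of at least 50 in the 9 NSP and 24 h libraries and at most 2 reads in each of those 10, against 3 peaks the other way round, and the cause was not tested. Clu, which encodes the chaperone clusterin (placed by a gene end), and Gpld1, a phospholipase gene, rose by 0.77 and 0.66. Among those that fell were S100b (-0.95), a calcium-binding protein gene of astrocytes, Aldoc (-0.68), Glul (-0.52) and Sox9 (-0.52). At Kcnj10, the inward rectifier potassium channel of astrocytes, the values went from 1360.5, 1070.8 and 1193.4 in NSPs through 984.8, 1065.1 and 909.0 to 746.4, 807.0 and 742.5. This was the 1 astrocyte promoter called lower over the TNF step (-0.36 ± 0.11, limma, adjusted p = 0.023), beside 0.592% of all promoter peaks.

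Among 19 tested promoters of contractile and matrix genes 6 rose and 8 fell, against 5.35% and 47.3% of all promoter peaks, so that the falls were near that background. Among the risers, Ccn2, a matricellular protein gene, read 68.3, 43.8 and 50.5 in NSPs and 154.8, 199.3 and 190.0 with TNF. Acta2, smooth muscle actin, read 26.9, 60.3 and 53.8 against 132.6, 148.7 and 135.0. Tagln, the actin-binding protein transgelin, read 11.1, 16.5 and 24.6 against 89.3, 75.4 and 93.5. The NSP and TNF libraries did not overlap at any of these genes, of which Ccn2 and Tagln were placed by a gene end, and their TNF steps (-0.10, -0.16 and 0.59) were not called. Promoters of collagen and fibronectin genes fell, with Col1a1 at -0.92, Col4a1 at -0.44 and Fn1 at -0.40. With total-read scaling 8 of the list rose and 4 fell, and with loess offsets 8 and 2, so the balance of this list turned with the scaling.

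**Figure D2:**
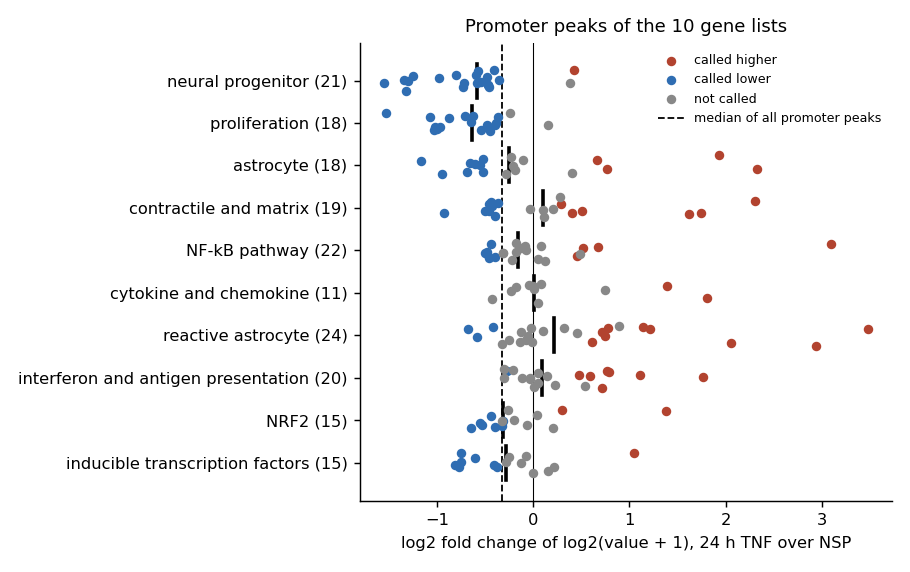
Log2 fold change from NSPs to 24 h with TNF (x axis) of each promoter peak of the 10 gene lists (rows, number of tested peaks in brackets), coloured by call, with each list's median as a short black line and the median of all promoter peaks, -0.32, as the dashed line. The neural progenitor and proliferation points lie almost wholly to the left, while C3 at 3.48 and Tnip1 at 3.09 lie farthest to the right.

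The inflammatory lists held most of the promoters that rose. The 107 tested promoters of the 6 lists (NF-κB pathway, cytokine and chemokine, reactive astrocyte, interferon and antigen presentation, NRF2, inducible transcription factors) had 25 called higher and 24 lower, and the 76 of the 4 differentiation lists 11 and 51, beside 5.35% and 47.3% of all promoter peaks. Over the untreated step the 107 counted 10 higher and 31 lower, beside 4.61% and 41.5% of all promoter peaks, and over the TNF step 19 higher and 1 lower, beside 1.61% and 0.592%. Tap1 and Psmb9, which face each other across 1 promoter peak, count as separate genes here.

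Of the reactive astrocyte genes, 24 of 30 had a tested promoter peak, of which 9 rose (background 5.35%) and 3 fell (background 47.3%). The complement gene C3 (chr17:57227906-57228406) read 9.93, 3.77 and 7.31 in NSPs, 12.5, 4.43 and 16.0 untreated and 71.6, 83.0 and 97.6 with TNF. The untreated and NSP libraries overlapped and the TNF libraries stood apart from both, 12.0-fold above the NSP mean (log2 change 3.48 ± 0.36, limma, adjusted p = 2.8e-09), with a TNF step of 2.97 ± 0.36. Lcn2, a siderophore-binding lipocalin and a standard marker of reactive astrocytes (chr2:32387720-32388220), read 13.4, 7.54 and 3.32, then 29.6, 11.8 and 28.3, then 64.6, 63.6 and 55.0. Its rise of 2.93 ± 0.42 divided evenly, with 1.48 over the untreated step and 1.46 over the TNF step, and both were called (adjusted p = 0.0048 and 0.022). Steap4, a metalloreductase (chr5:7960014-7960514), read 19.9, 13.7 and 21.3, then 26.2, 25.1 and 25.9, then 86.7, 72.2 and 75.8, so that its rise of 2.06 ± 0.29 was mostly the TNF step of 1.56.

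Osmr, a receptor subunit for oncostatin M, the copper oxidase gene Cp and the guanylate-binding protein gene Gbp2 rose by 0.71, 0.78 and 0.75, and each had a called TNF step (0.58, 0.58 and 0.55) with no called untreated step. Tm4sf1, a tetraspan membrane protein gene, and Aspg, an asparaginase gene, rose by 1.14 and 1.21 with the untreated step. At Aspg the TNF step was -0.38 and not called. Emp1, an epithelial membrane protein gene, showed both steps in opposite directions, with 281.0, 416.9 and 410.7 in NSPs, 232.3, 194.7 and 213.1 untreated and 340.5, 315.7 and 423.7 with TNF, a fall of 0.77 followed by a rise of 0.74, and no call from end to end (-0.03). Vcam1, an adhesion molecule for leukocytes, Fkbp5 and Slc10a6 fell.

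The NF-κB list rose at Tnip1, Nfkbia, Nfkbiz and Relb and fell at Rel, Tnip2, Cyld, Map3k14, Chuk and Ripk1. Of 26 genes 22 had a tested promoter peak, with 4 higher and 6 lower, beside 5.35% and 47.3% of all promoter peaks. Over the TNF step 3 rose, beside 1.61% of all promoter peaks. Tnip1, a partner of the deubiquitinase A20 that restrains NF-κB signalling (chr11:54962726-54963226), read 6.43, 2.83 and 16.6 in NSPs, 10.2, 10.3 and 23.4 untreated and 65.4, 59.3 and 75.8 with TNF (log2 change 3.09 ± 0.43, limma, adjusted p = 8e-07). Nfkbia, which encodes IκBα (chr12:55492227-55492727), was open in all cells, at 695.1, 693.9 and 693.1 in NSPs, 679.7, 745.0 and 599.8 untreated and 868.4, 959.9 and 1037.4 with TNF, and Nfkbiz, an atypical IκB protein gene placed by a gene end, went from 531.6, 629.4 and 641.2 through 554.5, 534.0 and 501.3 to 851.6, 810.2 and 907.6. At these 3 genes the TNF libraries stood above all others and the untreated step was not called. Relb, the subunit of the non-canonical pathway (placed by a gene end), rose by 0.68 in total, of which the untreated 0.42 was called and the TNF 0.26 was not. The other subunits did not rise, at 0.13 for Nfkb2, 0.09 for Rela and -0.31 for Nfkb1, none of them called, and Rel fell by 0.50. With loess offsets or total-read scaling the list had 6 or 7 higher and 2 or 3 lower, so the balance of this list turned as well.

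Of 21 cytokine and chemokine genes only 11 had a tested promoter peak. Of these 2 rose and none fell, beside 5.35% and 47.3% of all promoter peaks. Cxcl10, an interferon-inducible chemokine (chr5:92348735-92349235), read 62.5, 47.6 and 47.8 in NSPs, 35.3, 39.8 and 39.4 untreated and 170.7, 109.9 and 141.2 with TNF. The untreated libraries lay below the NSPs (-0.44 ± 0.22, adjusted p = 0.099) and the TNF libraries above both, with a TNF step of 1.83 ± 0.22 (limma, adjusted p = 1.5e-06) and 2.12 at 72 h. Cxcl5, a chemokine for neutrophils whose peak was placed by a gene end, read 29.8, 13.7 and 9.97, then 38.7, 20.7 and 80.1, then 54.8, 70.0 and 51.9, and only its untreated step was called. The monocyte chemokine Ccl2 was open in every group, at 527.5 to 720.3 in NSPs and 512.0 to 533.2 with TNF, and was not called (-0.23, adjusted p = 0.10). Il33, an alarmin gene, fell over the untreated step by 0.94 and was not called over the TNF step at 0.77 (adjusted p = 0.062).

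Of the interferon and antigen presentation genes 20 of 21 had a tested promoter peak. Of these 7 were higher and 1 lower, beside 5.35% and 47.3% of all promoter peaks. H2-K1, a class I heavy chain gene (chr17:34000118-34000618), read 126.8, 139.0 and 142.2 in NSPs, 128.7, 175.5 and 147.8 untreated and 262.6, 203.6 and 242.0 with TNF. The class I loci H2-D1 and H2-T23 share sequence with it, so reads may have been divided among them, and they rose by 0.48 and 0.60. Ifit3, an interferon-induced antiviral gene, rose by 1.76 ± 0.34 from 9.93, 7.54 and 6.64 to 37.1, 21.5 and 31.2, and neither of its steps was called alone. Irf9, the DNA-binding subunit of the interferon-activated complex ISGF3, rose by 1.11 and Tapbp, which loads class I molecules, by 0.76, in both cases over the untreated step. Ifit1 rose over the TNF step by 1.08, while Irf1 was not called against NSPs, at -0.03.

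Of 15 tested promoters of NRF2 genes 2 rose and 7 fell, against 5.35% and 47.3% of all promoter peaks, a share of falls near that background. Osgin1, an oxidative stress-induced growth inhibitor gene (chr8:119436835-119437335), read 40.9, 53.2 and 36.5 in NSPs, 74.0, 63.4 and 66.5 untreated and 128.2, 105.6 and 109.0 with TNF, with no overlap between groups and calls at both steps (0.65 and 0.74). The genes of glutathione synthesis, Gclc and Gclm, fell by 0.64 and 0.56. Sqstm1, the autophagy receptor p62, was the 1 promoter of the inflammatory lists called lower over the TNF step. It went from 756.0, 786.3 and 750.1 untreated to 584.5, 518.2 and 541.0 (-0.48, limma, adjusted p = 0.0042). Nfe2l2, which encodes NRF2 itself, fell by 0.31 (adjusted p = 0.013), a call lost with loess offsets (-0.01) and with total-read scaling (-0.11).

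Among the inducible transcription factors Cebpd, a C/EBP family gene placed by a gene end, was alone of 15 in rising, and 7 fell, both near the 5.35% and 47.3% of all promoter peaks. It read 545.0, 548.3 and 534.9 in NSPs, 630.7, 668.3 and 625.7 untreated and 1101.8, 1062.3 and 1197.4 with TNF (log2 change 1.04 ± 0.10, limma, adjusted p = 1.5e-09). Fos, Jun and Fosb, subunits of AP-1, fell by 0.77, 0.75 and 0.81, and at Fos the untreated fall of 1.21 met a called TNF rise of 0.44. At Junb both steps were called and cancelled, with 1192.8, 827.2 and 796.7 in NSPs, 646.7, 600.4 and 647.9 untreated and 796.8, 843.6 and 1157.9 with TNF. Stat3, the transcription factor of interleukin-6 family signals, fell by 0.38 (adjusted p = 0.0066), but by 0.22 with no call without NSP replicate 1, whose value of 3179.0 exceeded the 2335.6 and 2224.0 of the others, and it was at 0.01 with loess offsets. Smad3, Cebpb, Runx1 and Atf3 were not called, at -0.25, 0.15, 0.21 and -0.13.

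**Figure D3:**
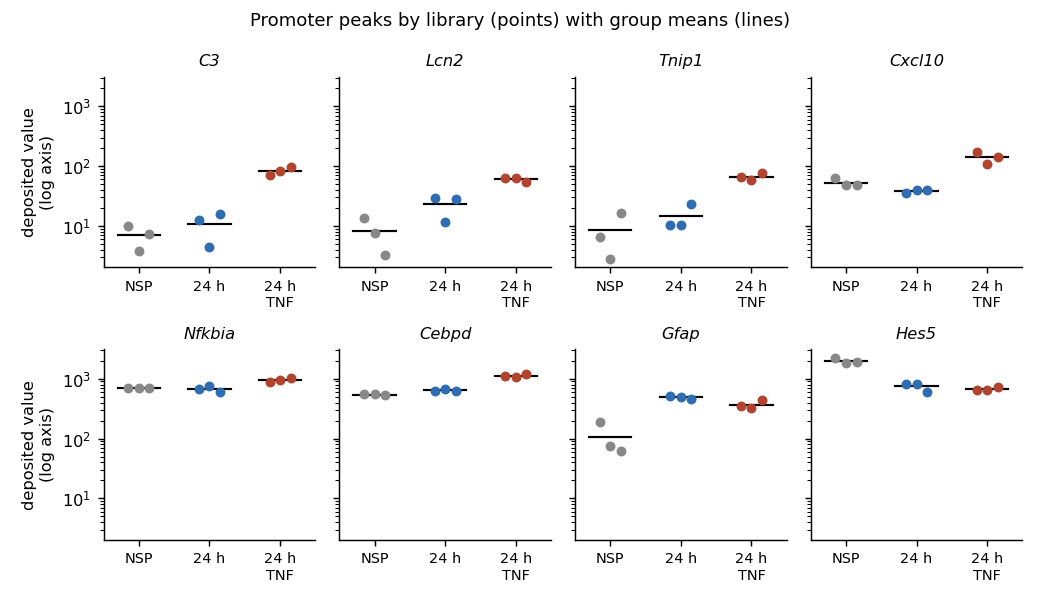
Deposited values (log axis) of 8 promoter peaks in each NSP, untreated 24 h and 24 h TNF library (points) with group means (lines). C3, Tnip1, Cxcl10, Nfkbia and Cebpd are highest in all 3 TNF libraries, Lcn2 climbs at both steps, Gfap rises without TNF, and Hes5 falls in both 24 h groups.

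Across the 10 lists, 36 promoters rose between NSPs and 24 h with TNF, and 35 of these called promoters had libraries that did not overlap, as did 57.2% of all tested peaks, called or not. Only the untreated step was called at 14 of the 36 and only the TNF step at 12. Lcn2, Clcf1 and Osgin1 were called at both, and 7 at neither. Among the 23520 risers at all positions, only the untreated step was called at 14994, only the TNF step at 2679 and neither at 2927. Of the 75 promoters that fell, 68 were called at the untreated step alone and 1 at the TNF step alone. Among the 22693 fallers at all positions these counts were 15619 and 820. Kcnj10 was the 1 that was lower at both steps, and Fos the 1 with an opposite TNF step. Leaving out NSP replicate 1 gave 39 risers and 71 fallers.

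**Figure D4:**
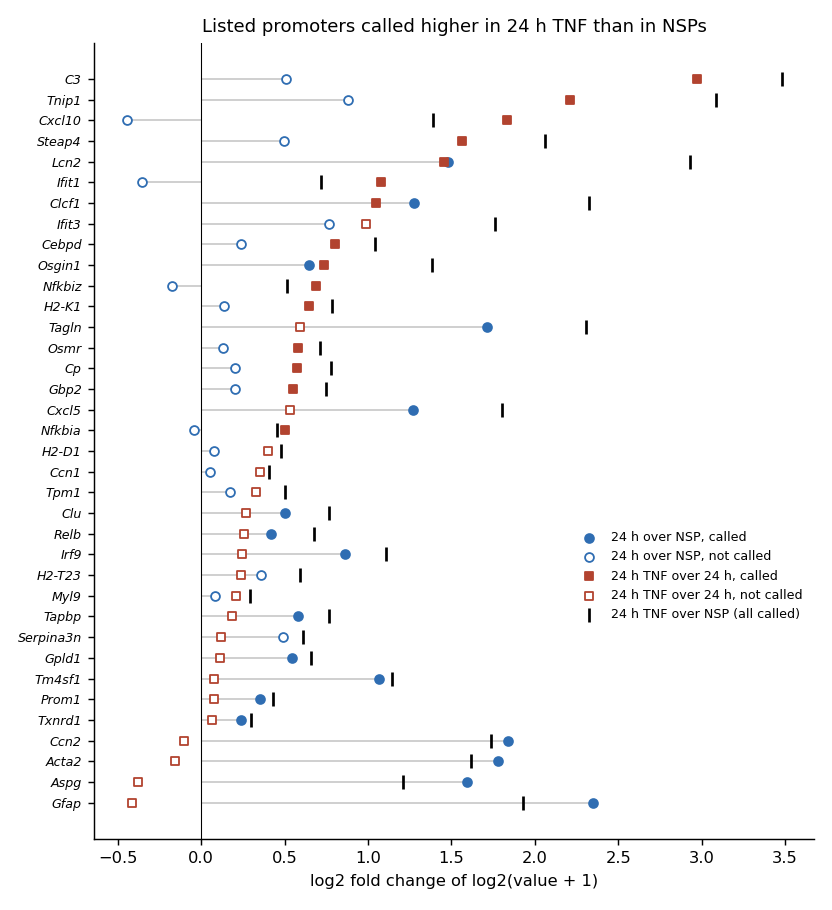
The 36 promoters of the gene lists called higher in 24 h TNF cells than in NSPs, ordered by their TNF step, with the log2 change of the untreated 24 h step (blue circles), of the TNF step (red squares) and of their sum (black ticks), filled where called. From Nfkbia up, called TNF steps of 0.50 to 2.97 prevail, while Ccn2, Acta2, Aspg and Gfap at the bottom rose over the untreated step.

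The wider loci of the lists held further peaks, most of them outside promoters. In the loci of the lists (gene body and 20 kb on either side) 347 peaks rose and 374 fell, which is not read as a result about the lists together. By list, 15.8% to 41.9% of tested peaks rose and 10.1% to 52.9% fell, on both sides of the 26.5% and 25.5% of all peaks. Reactive astrocyte loci had 148 tested peaks, of which 41.9% rose and 10.1% fell against 26.5% and 25.5% of all peaks, with a median change of 0.29 against -0.08. Of their peaks 24.3% rose over the TNF step, against 7.06% of all peaks, and 30.4% over the untreated step, against 24.2%. NF-κB pathway loci (150 peaks) had 36.7% higher and 15.3% lower, and cytokine and chemokine loci (72 peaks) 33.3% and 11.1%. Neural progenitor loci (171 peaks) had 15.8% higher and 49.1% lower, and proliferation loci (85 peaks) 16.5% and 52.9%. Astrocyte loci (254 peaks) had 22.8% and 35.0%, and contractile and matrix loci (145 peaks) 26.2% and 22.8%.

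Single loci were chosen for mention after their values were seen. Around Sbno2, a strawberry notch family gene, 10 of 16 peaks rose and none fell, and 8 rose over the untreated step and 5 over the TNF step, although the promoter peak itself was not called (-0.26, adjusted p = 0.20). Around Traf2, a TNF receptor adaptor, 6 of 10 peaks rose, 2 over the untreated step and 4 over the TNF step. Around Bcl3, an atypical IκB gene, 5 of 7 rose, 1 over the untreated and 4 over the TNF step, and around Cp all 5 rose, with 3 called higher over each step and 1 lower over the TNF step. Around Smad3, a TGF-β signal transducer, 8 of 17 peaks fell over the untreated step and 4 rose over the TNF step, and around Junb 6 of 9 and 5 of 9 did so.

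Peaks called at both steps fell into 4 classes. Since both calls use the untreated 24 h libraries, an unusual untreated value moves both, and the class sizes and values at 24 h are given as a description only. The comparison of TNF with untreated cells at 72 h shares no library with them. It called 5551 of all peaks higher (6.24%) and 4932 lower (5.55%), of which 53.0% of calls were higher, or 39.0% with total-read scaling. Without TNF replicate 3 the 72 h counts were 3602 and 3275, and without untreated replicates 1 and 3 the lower count was 2829 and 3110. Without NSP replicate 1 they were 8156 and 7391.

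The class higher at both steps, in untreated over NSP cells and again in TNF over untreated cells, held 1977 peaks (2.22% of those tested), 47 of them at promoters. Its median change from NSPs was 2.27, made of 1.16 and 0.98. At 72 h TNF raised 1192 of them (60.3%) and lowered 1. The size depended on single libraries, with 1210 peaks without 24 h TNF replicate 3, 1238 without untreated replicate 2 and 1250 without untreated replicate 1. Within Arnt2, a bHLH-PAS factor gene (chr7:84337723-84338223), the values were 10.5, 7.54 and 4.65 in NSPs, 35.3, 31.0 and 86.2 untreated and 279.4, 248.9 and 318.8 with TNF. A peak 72.5 kb from Tlr4, the receptor of lipopolysaccharide (chr4:66918846-66919346), read 5.84, 4.24 and 4.65, then 42.1, 36.9 and 32.0, then 136.2, 182.1 and 208.7. One near Pak3, a neuronal p21-activated kinase gene (chrX:143501142-143501642), read 4.67, 4.24 and 4.65, then 44.4, 28.0 and 76.4, then 240.5, 235.9 and 227.4. At all 3 sites the groups did not overlap, and at 72 h TNF raised them by 2.93, 2.26 and 2.18. Sfxn1 and the Tlr2 site above were also named in this class. In reactive astrocyte loci 16 of 148 peaks (10.8%) were of this class, 4 of them at Sbno2, in NF-κB loci 8 of 150 (5.33%), in progenitor loci 1 of 171 (0.585%) and in proliferation loci none of 85.

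The class lower then higher, with untreated cells below NSPs and TNF-treated cells above untreated ones, held 1273 peaks (1.43%), of which 65 were at promoters. End to end, 895 of them (70.3%) were not called, with a median of 0.02. At 72 h TNF raised 555 (43.6%) and lowered 1. The class grew to 2336 without NSP replicate 1 and shrank to 739 without 24 h TNF replicate 3. A peak near Zswim6, a zinc finger protein gene (chr13:107485573-107486073), read 140.2, 370.3 and 319.6 in NSPs, 69.5, 75.2 and 76.4 untreated and 305.1, 385.7 and 387.4 with TNF. Near Jade2, a chromatin-associated PHD finger gene (chr11:51881036-51881536), it read 102.8, 240.7 and 170.8, then 35.3, 54.6 and 51.7, then 175.1, 181.0 and 213.9. An intragenic site of Smad3 (chr9:63677573-63678073) read 61.3, 69.7 and 64.5, then 26.2, 16.2 and 11.1, then 56.6, 46.3 and 120.5. In each case the TNF libraries overlapped the NSPs and the untreated libraries lay below both. The other named members lay near Zic1, Ly86 and Prdm6. At 72 h the TNF change was 2.09 at Zswim6, 1.08 at Jade2, 1.885 at Zic1 and 1.61 at Ly86, all called. It was 0.71 at the Smad3 site and -0.46 at Prdm6, neither called. Loci of inducible transcription factors held 12 peaks (9.68% of theirs) in this class, 3 each at Smad3 and Junb.

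The class higher then lower held 1599 peaks (1.80%), with untreated cells above NSPs and TNF-treated cells below untreated ones, and 805 (50.3%) were not called from end to end. At 72 h TNF lowered 948 of them (59.3%) and raised none. The class held 3090 peaks without NSP replicate 1, and 763 to 1059 when untreated replicate 1 or any 24 h TNF replicate was left out, at 763, 1034, 1059 and 833. Within Gabbr2, a subunit gene of the GABA-B receptor (chr4:46710033-46710533), the values were 32.7, 26.9 and 18.6 in NSPs, 199.2, 224.2 and 156.4 untreated and 54.8, 61.4 and 28.0 with TNF. Within Thsd4, a thrombospondin-domain matrix protein gene (chr9:60191926-60192426), they were 11.7, 2.83 and 8.64, then 88.8, 72.3 and 98.5, then 18.6, 11.9 and 21.8. Near Lgi1, a secreted synaptic protein gene (chr19:38330325-38330825), they were 7.59, 3.3 and 8.64, then 42.1, 42.8 and 53.0, then 20.3, 9.7 and 5.19. The untreated libraries stood alone at the top at all 3 sites, and the TNF change at 72 h was -2.94, -1.24 and -2.15. Heatr1, Aym1 and 1700123K08Rik had the other named peaks, with TNF steps of -3.02, -2.20 and -2.15, and the call at Aym1 was lost when single libraries were left out. At 72 h the TNF change at these genes was -1.28, -1.2 and -2.31, called only at 1700123K08Rik.

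The class lower at both steps was the smallest, with 447 peaks (0.503%), a median change of -1.43 and 16 promoters. At 72 h TNF lowered 191 of them (42.7%) and raised none. It held 677 peaks without NSP replicate 1, and without untreated replicates 1 and 2 or 24 h TNF replicates 1, 2 and 3 it held 186, 188, 247, 285 and 233. Near Kif2a, a microtubule-depolymerising kinesin gene (chr13:107111246-107111746), the values were 326.5, 225.2 and 218.0, then 116.1, 144.6 and 76.4, then 39.8, 45.2 and 44.7. Within Pcsk5, a proprotein convertase gene (chr19:17650695-17651195), they were 228.4, 223.8 and 319.6, then 91.1, 91.5 and 104.7, then 38.0, 59.3 and 32.2. The groups stepped down without overlap at both, and at 72 h the TNF change was -1.18 at Kif2a and called, and -0.46 at Pcsk5 and not called. Peaks at Pcdh15, Ube2cbp and 1700113H08Rik were low in TNF cells, at 2.15 to 23.7, and a step of each lost its call when single libraries were left out. Their TNF changes at 72 h, of -0.09, -0.18 and -0.19, were not called.

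**Figure D5:**
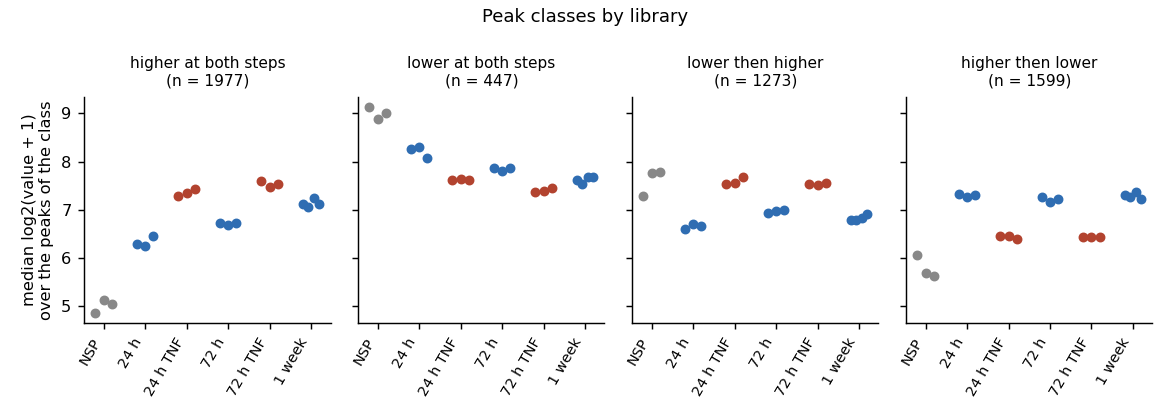
Median log2(value + 1) over the peaks of each class (y axis) in each library (points) of the 6 groups (x axis), with NSPs in grey, untreated cells in blue and TNF-treated cells in red. NSP and 24 h values defined the classes, and the 72 h libraries, which did not, show red points above blue in the classes higher at both steps and lower then higher, and below in the other panels.

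A difference of the TNF effect between 72 h and 24 h was tested at the 99 named peaks, as an interaction in the same limma fit. Clcf1 was among them, although its peak gives no 72 h value. None passed an adjusted p of 0.05 and 22 had an unadjusted p under 0.05, and over all 88919 peaks 1 passed. At single peaks, therefore, larger or smaller TNF effects at 72 h were not resolved by these libraries.

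Of the 26 genes the study names for these cells, 23 had a tested promoter peak. Those not yet described gave small values. Ccnb1, a mitotic cyclin, and Egr1, an immediate early factor, fell by 0.64 and 0.72. Timp1, an inhibitor of matrix metalloproteases, was not called at -0.05, with 45.0, 66.4 and 65.8 in NSPs, 42.1, 29.5 and 28.3 untreated and 57.5, 50.6 and 60.2 with TNF. Neither were Cd109, a co-receptor of TGF-β, at -0.01, or Gja1, the gap junction protein connexin 43, at -0.10, and the sign of all 3 turned with the scaling. Icam1, Ptx3 and Slc14a1 had no tested promoter peak.

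Few promoters of other cell type markers were tested. Promoter peaks were tested for 3 of 9 microglial genes, 5 of 8 neuronal, 3 of 8 oligodendrocyte lineage, 1 of 5 endothelial and 0 of 5 fibroblast and mural genes. Of these 12 peaks 3 fell and none rose, beside 47.3% and 5.35% of all promoter peaks. So few peaks cannot show whether such cells were present or changed. The summed value of the 3 microglial promoters ran from 317.2 to 401.4 in NSPs and from 306.9 to 344.8 with TNF, and that of the 5 neuronal promoters from 2085.5 to 2702.3 and from 1677.1 to 1872.5. For the microglial genes Aif1, Cx3cr1, Csf1r, Itgam, Ptprc and Cd68 no promoter peak was tested. In the wider loci of fibroblast and mural genes 6 of 16 peaks rose and none fell, against 26.5% and 25.5% of all peaks, and the part of such cells in the result was not tested.

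Motif letters in the 250 bases before a start are given for the promoters that rose at each step, as a description without a test. Both strands were searched. The NF-κB consensus was in 9.14% of the 10612 promoters with a tested peak, in 10.6% of the 385 that rose from NSPs to 24 h with TNF, in 24.8% of the 105 that rose over the TNF step and in 4.66% of those that rose over the untreated step. The AP-1 letters TGANTCA were in 3.84%, 14.0%, 25.7% and 11.5% of the same sets. The TEAD letters GGAATG were in 10.2%, 17.1%, 14.3% and 17.4%, the C/EBP letters TTGCNNAA in 6.75%, 11.4%, 12.4% and 11.2%, and the NFI half-site TTGGCA in 9.71%, 14.8%, 15.2% and 15.5%. The letters of the NRF2 element, TGACNNNGC, were in 12.0%, 13.5%, 20.0% and 10.9%, and the SOX letters ACAANG in 27.9%, 35.3%, 27.6% and 40.4%. The sets share members, and a stretch can match more than 1 motif. Of the sequences printed above, C3, Lcn2 and Steap4 held the C/EBP letters, and Cxcl10 held the AP-1 letters. Nfkbia, Cxcl10 and H2-K1 held the letters of the NRF2 element, Lcn2 and Steap4 the NFI half-site, and Tnip1 the SOX letters. None of them held the TEAD letters.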

How the data were processed

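ATAC-seq libraries were mapped to their groups by title. The submitters' processing notes name FastQC, Trim Galore, Bowtie2, SAMtools and MACS2 and the build mm10, and per the study's methods peaks in blacklisted regions were dropped and DiffBind compared the groups. Versions are not given in the sources used here. The deposited signal is reads per peak divided by a library size factor. At a tolerance of 0.01 the values gave back whole reads, and edgeR and DESeq2 on these counts served as alternatives only. No column of per-sample values lacked a sample.

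Values were tested as log2(value + 1) with limma 3.58.1 (R 4.3.3, trended, Benjamini-Hochberg) in 1 fit of all 19 libraries. A filter (edgeR 4.0.16 filterByExpr, minimum count 10) left out 1235 peaks. The fit was checked on simulated data. Text names the 10 peaks per direction with the smallest p among calls without library overlap, the 6 per class whose smaller step was largest (1 peak per nearest gene), up to 4 promoters per list with the smallest p and the genes the study names, and other genes were chosen after their values were seen. Some peaks that meet this rule are not reported here. The gene lists and the comparison were chosen with earlier results of these data known. A promoter peak has its centre within 1 kb of a RefSeq gene start (GRCm38.p6), or of either gene end where no start was listed (4408 of 21900 protein-coding genes). Exons, introns and peak sequences were not assigned. Reads are not independent molecules, so depth limits counting error only. Alternatives changed the scaling, filter, pseudocount, tool, threshold, distance, library set and replicate block, and left out each library in turn. A pairing of the libraries by the replicate numbers of the titles was not shown (correlations of deviations -0.031 to 0.106), nor could it be excluded. At 72 h the title numbers of the TNF libraries differ from the numbers in their column names, so pairs there may be misaligned.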

Additional observations from a re-analysis of the deposited data

How the results depend on the processing

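Of 3446 values of named results under 28 settings, 3375 kept their direction and side of the threshold, 44 kept the direction but lost the call, 8 gained one and 19 turned direction (7 results, 1 of them called), and 463 of 514 counts stayed within 1.5 times. Many of these values could hardly move. Another filter, or leaving out a library of a group not compared, keeps the estimate. Most named peaks were also chosen for a small p or large steps, so the tally does not measure how robust peaks are in general. Where not shown otherwise, the cause was not tested. With loess offsets 1180 promoter peaks rose and 3551 fell, and 47 listed promoters fell. With total reads in peaks 13941 peaks fell from NSPs to 24 h TNF and 12367 to untreated cells, promoter peaks gave 1205 and 3017, and 222 list locus peaks fell. Loci of 50 kb gave 561 higher and 638 lower. With only the 2 groups compared, 5750 peaks were lower over the TNF step, 8739 higher and 7686 lower at 72 h, and the class higher then lower held 2496. With only the 9 libraries, fewer samples gave 4076 and 1539 TNF calls and classes of 996 (higher at both), 286 (lower at both), 756 (lower then higher) and 638 (higher then lower). At an adjusted p of 0.01 these held 935, 131, 526 and 552.

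Leaving out 1 library gave 3860 to 8386 peaks higher and 1525 to 5427 lower over the TNF step (8386 and 5427 without NSP replicate 1, 3860 without 24 h TNF replicate 3, and 1525, 1864, 1962, 2026 and 1652 without untreated replicates 1 and 2 and TNF replicates 1, 2 and 3), and 3602 to 8156 higher and 2829 to 7391 lower at 72 h (8156 and 7391 without NSP replicate 1, 3602 and 3275 without TNF replicate 3, 2829 and 3110 without untreated replicates 1 and 3). The classes ranged from 1210 to 2499, 186 to 677, 739 to 2336 and 763 to 3090. Directions turned at peaks near 0 or with scaling. Timp1 was 0.144 with total reads and -0.236 to 0.04 without single libraries (main -0.0544). Cd109 was 0.0358 with TMM factors, 0.0107 with edgeR, 0.122 with loess, 0.194 with total reads and -0.196 to 0.126 without single libraries (main -0.00688). Gja1 was 0.0988 with total reads and -0.289 to 0.17 without single libraries. Stat3 was 0.0119 and Smad3 0.0579 with loess, Atf3 0.0344 with loess and 0.0732 with total reads, and Cebpb -0.000547 to 0.232 without single libraries. A replicate block gave 23454 higher and 22395 lower against NSPs and 6184 and 3004 over the TNF step. It was tried although a pairing by number was not shown and not every library correlated best with its own number. EdgeR called 24643 and 23203 peaks against NSPs, and DESeq2 24377 and 24066.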
